A study of Mus musculus with 28 samples.

Results

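The apolipoproteins described here are 10 mouse genes, Apoa1, Apoa2, Apoa4, Apoa5, Apob, Apoc1, Apoc2, Apoc3, Apoe and Apoh. They were chosen by name: every probe whose gene name in the scanner files was one of these was taken. That gave 16 of the 41174 gene probes on the array and 10 of the 21332 genes that could be tested. All 10 passed the filter on dim probes. They passed it through the liver arrays, where each is bright, so their passing says nothing about the other tissues.

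Apolipoproteins coat the particles that carry cholesterol and triglycerides through blood. Hepatocytes and absorptive cells of the intestine load lipid onto Apob, the structural protein of chylomicrons and very low density lipoproteins. Apoa1 and Apoa2 are the main proteins of high density lipoproteins. The smaller exchangeable proteins move between particles and set their fate: Apoc2 activates lipoprotein lipase, Apoc3 inhibits it, Apoa5 promotes its action, and Apoe is a ligand of the low density lipoprotein receptor family. Apoa4 is made by the intestine and, in mice, by the liver. Apoc1 modulates lipoprotein enzymes and the uptake of remnants. Apoh is an abundant plasma protein that binds negatively charged phospholipids.

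The study set organoids grown from single Lgr5 liver cells, Lgr5 being a receptor that marks Wnt-driven stem and progenitor cells, beside the tissues and cells of the liver and beside unrelated tissues. Each of 28 2-colour Agilent arrays carried Cy3-labelled RNA of 1 sample and Cy5-labelled mouse reference RNA (Stratagene), the same on every array. All samples carry the strain label C57BL/6; age, sex and the cell type or allele that reported Lgr5 are not given in the sources used here. The 13 groups are organoids in expansion medium (EM, 2 arrays) and in differentiation medium (DM, 1 array, labelled as having no biological replicates); adult liver (wildtype, 2); whole liver tissue (2); the hepatocyte fraction of dissociated liver (2); ductal cells sorted with Mic1-1c3, a surface marker (2); Lgr5-sorted cells 6 days after carbon tetrachloride (CCl4), a toxin that kills hepatocytes (2); liver 3 days (2) and 13 days (2) after CCl4; and wildtype pancreas (2), muscle (3), white adipose tissue (3) and brown adipose tissue (3). The labels call the arrays of a group biological replicates without naming animals or cultures, so the p-values measure the spread between these arrays.

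Values are log2 ratios of the sample over the reference, written as log2 Cy3/Cy5, and a difference of 1 between groups is a doubling. limma's moderated test was fitted over all 13 groups and all 21332 genes. A gene is called here when its Benjamini-Hochberg adjusted p is below 0.05 and its log2 change is at least 1 in size. Errors of changes are standard errors, errors of group means are SD over arrays. DM has 1 array, so the error of its changes takes the array-to-array spread from the remaining groups. Where a gene was not well above background on any array of a group, only a bound is known, and the fold is given as "at least"; it compares the bright group's Cy3 with the dimmest signal that still stood above background. In these bulk samples, fewer cells of a type and less RNA per cell cannot be told apart.

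Array quality differed between groups. Between 17.7% and 69.1% of probes stood well above background, with 18.5% and 21.5% on the Lgr5-sorted arrays and 17.7% on pancreas array 1. No spot was saturated in either channel. The 9 hepatocyte markers were all above background on both adult liver arrays, and 8 of 8 bile duct markers were above background on every EM and sorted duct array. On the Lgr5-sorted arrays 8 of 10 macrophage markers were above background on both, led by Cd5l with a mean log2 Cy3/Cy5 of 10.77 and Lyz2 with 8.26.

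The reference channel of these genes was not constant, which bears on every ratio below. On the 10 arrays of liver tissue and hepatocytes the median normalised Cy5 of Apoc3 was 12.03 on the log2 scale, against 6.34 on the 18 other arrays. For Apoa1 the medians were 11.00 and 6.44, and for Apoe 12.69 and 9.93. Apoa4 moved least, with 6.68 and 6.50. Over the 10 genes the difference had a median of 3.37 and ran from 0.18 to 5.70, while over all 21332 genes its median was 0.03. The same reference RNA was labelled each time. Its cause was not tested, and ratios to a reference that is high where the sample is high understate the difference between samples. Cy3 alone, scaled to the 75th percentile of each array, is therefore given beside results whose call or direction it changes. That scaling moved the median of all genes as well, from -1 for EM organoids against duct cells to 0.62 for whole against adult liver, and its changes are read against that shift.

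**Figure D1:**
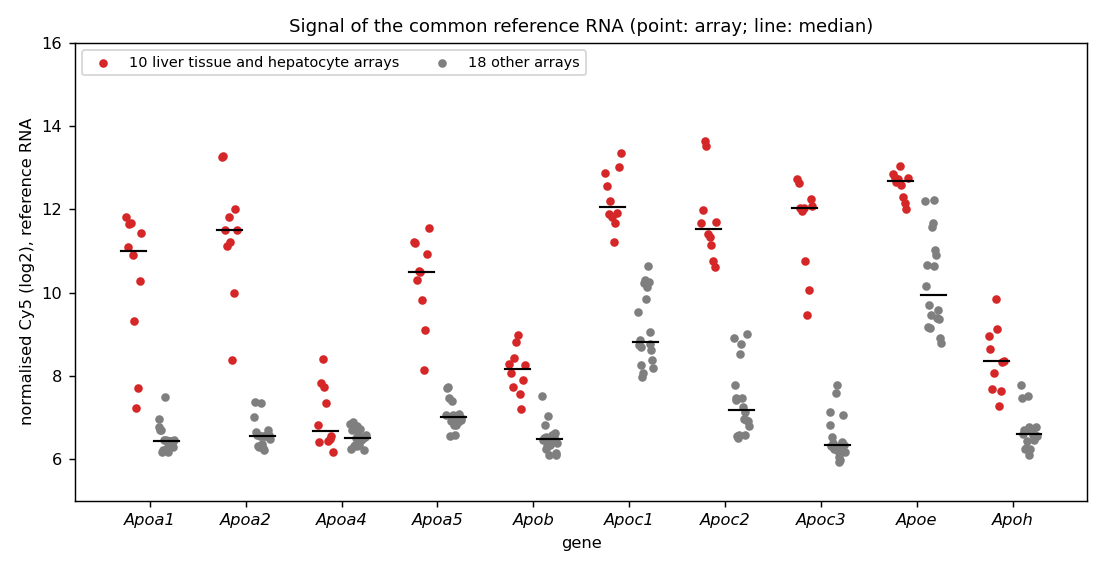
Normalised Cy5 signal (log2) of the reference RNA for each apolipoprotein; each point is an array, the black line the median, red the 10 arrays of liver tissue and hepatocytes and grey the 18 others. Red points lie above grey for most genes, by a median of 3.37 over the 10 genes, and least for Apoa4.

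The probes are 60 bases long and their positions are those printed in the scanner files for the mm9 build. The genes lie in clusters. Probes of Apoa1 (chr9:46037921-46037980), Apoc3 (chr9:46041353-46041412), Apoa4 (chr9:46049661-46050404) and Apoa5 (chr9:46079082-46079141) are neighbours on chromosome 9. Probes of Apoc2 (chr7:20257027-20257086), Apoc1 (chr7:20274856-20274915) and Apoe (chr7:20281732-20281791) are neighbours on chromosome 7. Apoa2 (chr1:173155858-173155917), Apoh (chr11:108275610-108275669) and Apob (chr12:8023194-8023253) stand alone. The Apoa4 probe spans 744 bases of the genome, so it joins sequence on both sides of a gap. Other exon positions are not stated, since no mm9 annotation was used here.

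The probes that follow carry the main results, and are printed 5′ to 3′ as the files give them, in lower case. They read Apoa1, Apoa4, Apoc3 and Apob, which were high in the DM organoid, and Apoe, which was not. The last pair shows the abutting Apob probes, whose ratios rose alike.

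Apoa1: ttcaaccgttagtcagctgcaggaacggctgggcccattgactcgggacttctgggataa

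Apoa4: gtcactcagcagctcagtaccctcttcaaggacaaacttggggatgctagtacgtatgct

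Apoc3: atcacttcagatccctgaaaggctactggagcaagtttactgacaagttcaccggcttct

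Apoe: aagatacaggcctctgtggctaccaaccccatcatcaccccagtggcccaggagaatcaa

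Apob: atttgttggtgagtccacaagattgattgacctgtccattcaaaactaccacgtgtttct

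Apob, abutting probe: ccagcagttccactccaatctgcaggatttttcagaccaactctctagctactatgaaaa

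All 10 apolipoproteins stood above background on every array of liver tissue and of hepatocytes, 10 arrays in all. Away from the liver they split by gene rather than by class. Apoe and Apoc1 were high in nearly every group except the organoids. Apoc2 followed at lower ratios in duct cells, Lgr5-sorted cells, muscle and fat. Apoa1, Apoa2, Apoa4, Apoa5, Apob and Apoh read at most 2.02 on every array outside liver tissue and hepatocytes, apart from Apoa1, Apoa4 and Apob in the DM organoid. Apoc3 reached 3.47 in the DM organoid and 2.89 in white fat. On the EM arrays 4 and 0 of the 10 genes stood above background, and on the DM array 6 did.

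**Figure D2:**
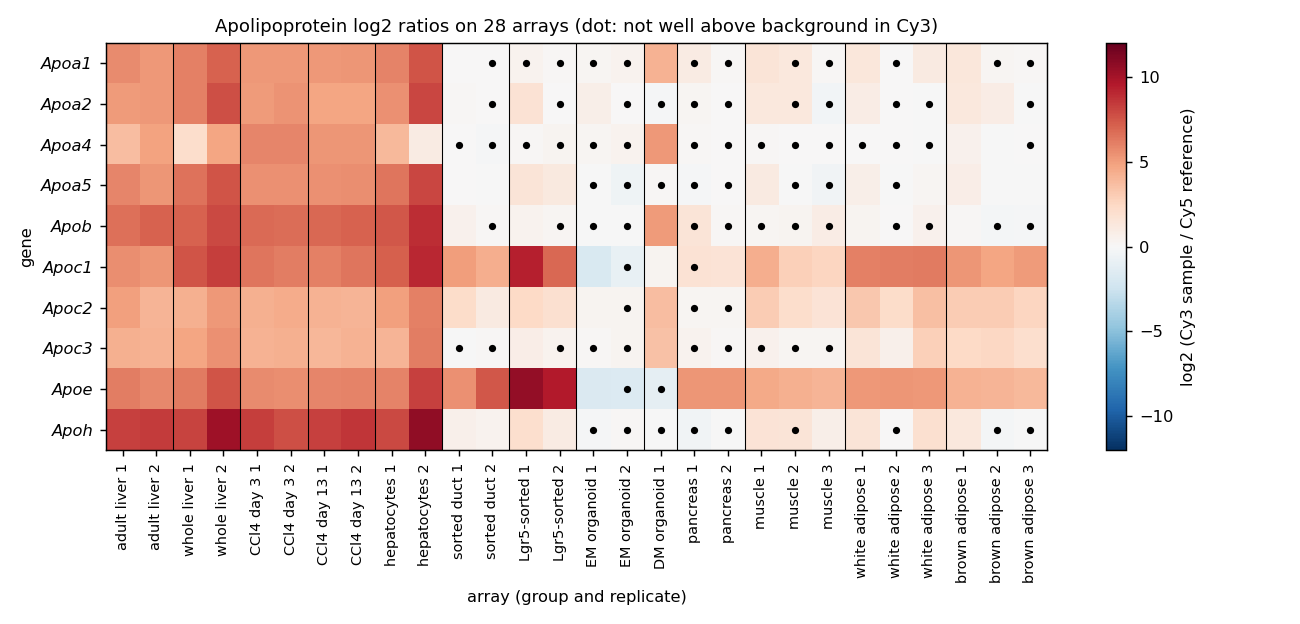
Log2 Cy3/Cy5 of the 10 apolipoproteins (rows) on the 28 arrays (columns, by group and replicate); red is above the reference, blue below, and a dot marks a gene not well above background in Cy3. The liver and hepatocyte columns are red for all genes, the Apoe and Apoc1 rows are red in most groups, and the DM column is red for Apoa1, Apoa4, Apob, Apoc2 and Apoc3.

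The first comparison asks how far organoids in expansion medium stand from the tissue they came from. All 10 apolipoproteins were lower in EM organoids than in adult liver, and 31.8% of all genes tested were called in this comparison. The median log2 change of the 10 was -5.48, against -0.09 over all genes. The 1 pair of EM and adult liver arrays scanned on the same day gave changes from -8.42 to -3.49, all lower.

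Among the structural proteins, Apob read -0.04 and -0.01 on the EM arrays and 6.59 and 7.04 in adult liver. The change was -6.84 ± 0.42 (adjusted p = 6.43e-11), and the transcript was at least 205-fold lower. Apoa1, of high density lipoproteins, read 0.23 and 0.41 against 5.70 and 5.24, at least 518-fold lower. No array of one group reached the range of the other for either gene. Apoa2, its partner on the same particles, changed by -4.78 ± 0.72, and 1 EM array stood above background for it. Apoa4 read 0.24 and 0.41 in EM and 3.73 and 4.82 in adult liver, and was at least 9.87-fold lower.

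The regulators of lipoprotein lipase fell too. Apoa5, its promoter, was at least 673-fold lower (-5.81 ± 0.48) and Apoc3, its inhibitor, at least 568-fold lower. Apoc2, its cofactor, changed by -4.24 ± 0.48 (adjusted p = 4.02e-07), from 4.95 and 4.12 in adult liver to 0.31 and 0.29. None of these EM and adult liver arrays overlapped. Apoh fell by 8.35 on the log2 scale and was at least 721-fold lower, the largest ratio change of the 10.

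Apoe and Apoc1, which most other groups held at high ratios, were below the reference in EM organoids. Apoe read -1.72 and -1.60 against 6.18 and 5.73 in adult liver, a change of -7.62 ± 0.56 (adjusted p = 1.02e-09). Apoc1 read -1.86 and -0.85 against 5.60 and 5.28, a change of -6.79 ± 0.64. On Cy3 alone all 10 fell further, from -4.02 for Apoa4 to -12.06 for Apoc1.

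Of 64 other genes of lipoprotein metabolism, a list of assembly factors, enzymes, receptors, exporters, transcription factors and further apolipoproteins, 41 were lower and 3 higher in EM organoids, with a median change of -2.88. The lower ones included 8 of 12 other apolipoproteins and 10 of 12 particle enzymes. Pon1, an esterase carried by high density lipoproteins, was at least 585-fold lower and Apof, another apolipoprotein, at least 292-fold. The 3 higher genes were Srebf2, the regulator of cholesterol synthesis (2.36 ± 0.29), the sorting receptor Sort1 (2.28 ± 0.51) and the very low density lipoprotein receptor Vldlr (1.52 ± 0.59). All 9 hepatocyte markers were lower as well, and 7 of 8 bile duct markers were higher. The summed Cy3 of the hepatocyte markers was 1730 to 2110 on EM arrays and 821000 to 846000 on adult liver arrays. The part of this cell type in the apolipoprotein changes was not tested.

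Differentiation medium was the condition meant to bring organoid cells toward liver fate, and 5 of the 10 apolipoproteins were higher on the DM array than on both EM arrays and were called, where 10.1% of all genes were called. They were Apoa1, Apoa4, Apob, Apoc2 and Apoc3. None was called lower. The median change over the 10 was 2.43, against 0.04 over all genes.

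Apob, which makes the particle, read 5.11 in DM against -0.04 and -0.01 in EM, a change of 5.14 ± 0.51 (adjusted p = 6.48e-07) and at least 15.8-fold. Apoa4 read 5.24 against 0.24 and 0.41, a change of 4.91 ± 0.82 (adjusted p = 0.000341) and at least 17.5-fold. Apoa1 read 4.19 against 0.23 and 0.41, a change of 3.87 ± 0.66 (adjusted p = 0.000423) and at least 9.55-fold; on the deposited Agilent log ratio it was 4.83 and not called (adjusted p = 0.0804). The DM value lay outside the EM range for each.

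The lipase cofactor Apoc2 read 3.74 in DM and 0.31 and 0.29 in EM, a change of 3.43 ± 0.59 (adjusted p = 0.000423). The lipase inhibitor Apoc3 read 3.47 against 0.16 and 0.36, a change of 3.21 ± 0.66 (adjusted p = 0.00233) and at least 9.84-fold. Both were above background on the DM array, so activator and inhibitor of the same enzyme rose together. The chromosome 9 neighbours Apoa1, Apoc3 and Apoa4 were among the 5, while the other one, Apoa5, was not above background in DM, with a change of 0.35 ± 0.58 (adjusted p = 0.82).

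The other genes did not pass the test. Apoc1 read 0.29 against -1.86 and -0.85, a change of 1.65 ± 0.79 (adjusted p = 0.207). Apoe read -1.06 against -1.72 and -1.60, a change of 0.60 ± 0.69 (adjusted p = 0.697). Apoa2 changed by -0.50 ± 0.88 and Apoh by -0.02 ± 0.91. Apoa2, Apoe and Apoh were not above background on the DM array. Apoc1 and Apoe have DM values above both EM values. With only the EM and DM arrays in the fit Apoc1 was called (1.65, adjusted p = 0.0112).

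The DM array shares a slide with EM array 2 and pancreas array 1. Against EM array 2 alone the changes were 5.12 for Apob, 4.83 for Apoa4, 3.78 for Apoa1, 3.44 for Apoc2 and 3.11 for Apoc3, close to those over both EM arrays. Pancreas array 1 on that slide read 1.59 for Apob, 0.95 for Apoa1, 0.40 for Apoc3, 0.23 for Apoc2 and 0.15 for Apoa4.

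Apob has 5 probes, and they differed. The abutting pair near the 3′ end of the mapped stretch changed by 5.14 and 5.19 in DM. The probe at chr12:8014710-8014769 changed by 2.68. The remaining 2, at chr12:8018741-8018800 and chr12:8005482-8007691, changed by 0.28 and 0.71 and were not above background in DM. The other 4 followed the used probe over the 13 group means, with r from 0.87 to 0.999. A second Apoc3 probe, shifted by 10 bases, changed by 2.99.

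Of the 64 pathway genes 14 were higher and 2 lower in DM than in EM, with a median change of 0.43. The 14 held 3 of 10 assembly factors, 4 of 15 transcription factors, 3 of 10 receptors, 2 of 5 exporters, 2 of 12 other apolipoproteins and 0 of 12 particle enzymes. The sterol exporter Abcg5 changed by 4.42 ± 0.64 (at least 11-fold), the bile acid receptor Nr1h4 by 3.90 ± 0.49 and Creb3l3, a transcription factor of liver and intestine, by 3.54 ± 0.47. The exporters Abca1, which loads lipid onto Apoa1, and Abcg1 were lower, by -2.33 ± 0.55 and -1.74 ± 0.50.

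Markers of absorptive intestinal cells moved with these 5 genes. Of 8 such markers 4 rose and none fell, with a median change of 1.65, and 6 stood above background on the DM array. Fabp2 read 6.67 in DM, Cdx2 5.48, Vil1 5.21 and Sis 3.82, while Lct and Slc5a1 were not above background. The summed Cy3 of the 8 markers was 60800 in DM, 14000 to 14800 in EM and 35900 to 40500 in adult liver. Fabp2 itself is high in adult liver, at 7.65. Of 9 hepatocyte markers 2 rose, with a median change of 0.34; Alb read 3.84 and Ttr 3.85 in DM, and their summed Cy3 was 17400 in DM against 1730 to 2110 in EM. The part of either cell type in the apolipoprotein changes was not tested.

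**Figure D3:**
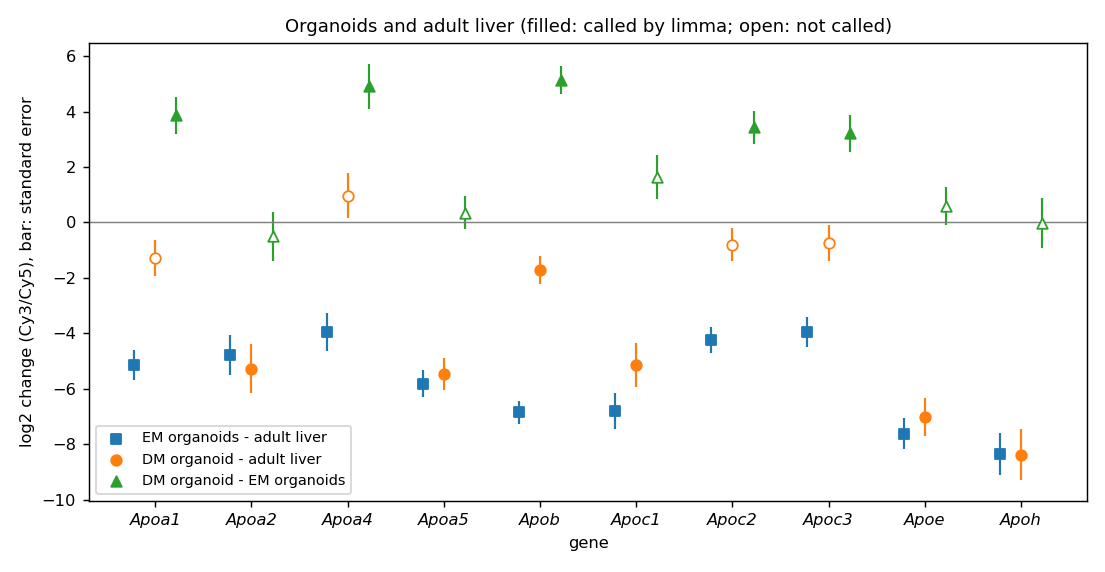
Log2 change of each apolipoprotein between EM organoids, the DM organoid and adult liver; bars are standard errors, filled symbols were called by limma and open symbols were not. Apoa1, Apoa4, Apob, Apoc2 and Apoc3 have filled triangles between 3.21 and 5.14 for DM over EM, while Apoe and Apoh stay near -7 and -8 against adult liver in both media.

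Set against adult liver, the DM organoid was lower for 6 of 10 apolipoproteins, with 28.1% of all genes called, and higher for none. This comparison and the first share the adult liver arrays, and this and the second share the DM array, so the 3 are not independent. Apoe was at least 1040-fold lower (-7.02 ± 0.69, adjusted p = 9.81e-08), Apoa2 at least 448-fold, Apoa5 at least 427-fold and Apoh at least 386-fold. Apoc1 changed by -5.15 ± 0.79 and Apob by -1.71 ± 0.51 (adjusted p = 0.0121). Without adult liver array 2 the Apob change was -1.48 (adjusted p = 0.0705), and on the deposited Agilent log ratio it was -0.02 (adjusted p = 1). That log ratio also ended the call of Apoa2 (-5.51, adjusted p = 0.051).

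The remaining 4 did not pass the test on ratios. Apoa4 read 5.24 in DM and 3.73 and 4.82 in adult liver (0.97 ± 0.82, adjusted p = 0.394). Apoa1 changed by -1.28 ± 0.66, Apoc2 by -0.80 ± 0.59 and Apoc3 by -0.73 ± 0.66. Their normalised Cy3 tells of a wider gap: Apoa1 had 10.56 in DM and 15.98 and 16.67 in adult liver, and Apoc3 10.52 against 16.50 and 16.24. On Cy3 alone the changes were -6.46 for Apoa1 (adjusted p = 1.77e-05), -6.75 for Apoc3 (7.02e-09), -3.38 for Apoc2 (0.000395) and -4.09 for Apob, all called, while Apoa4 stayed uncalled at 0.84. So only Apoa4 of the 10 was not called lower in DM than in adult liver by either measure. Of the 64 pathway genes 37 were lower and 4 higher in DM, with a median of -1.80, against 41 and 3 for EM. Pon1 was at least 324-fold lower and Vldlr was higher by 3.81.

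The promoters of the genes that rose in DM were read from RefSeq (GRCm38.p6) as the 250 bases before each start; 8 of the 10 genes matched, with 12 starts, and Apoc1 and Apoc3 did not. They were searched on both strands for TGNACTTTG, a run bound by HNF4 type receptors, GTTAAT, the core of HNF1 sites, and the TATA box TATAAA, and no match of one overlapped a match of another. Across 32841 mouse promoters of the same length the shares holding them are 1.19%, 6.43% and 12.4%. The 4 promoters of risers are printed on the gene's strand, with a match in capitals.

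Apoa1, chr9:46228380-46228629, plus strand: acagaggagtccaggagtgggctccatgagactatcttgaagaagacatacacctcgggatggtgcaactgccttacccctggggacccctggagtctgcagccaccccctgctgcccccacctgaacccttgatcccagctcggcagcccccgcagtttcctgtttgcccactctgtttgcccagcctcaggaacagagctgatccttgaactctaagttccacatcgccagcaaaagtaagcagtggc

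Apoa4, chr9:46240594-46240843, plus strand: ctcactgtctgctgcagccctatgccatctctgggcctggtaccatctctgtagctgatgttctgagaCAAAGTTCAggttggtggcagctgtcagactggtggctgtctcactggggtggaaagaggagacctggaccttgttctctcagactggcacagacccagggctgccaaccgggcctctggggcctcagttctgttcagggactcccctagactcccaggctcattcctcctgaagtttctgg

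Apob, chr12:7977427-7977676, plus strand: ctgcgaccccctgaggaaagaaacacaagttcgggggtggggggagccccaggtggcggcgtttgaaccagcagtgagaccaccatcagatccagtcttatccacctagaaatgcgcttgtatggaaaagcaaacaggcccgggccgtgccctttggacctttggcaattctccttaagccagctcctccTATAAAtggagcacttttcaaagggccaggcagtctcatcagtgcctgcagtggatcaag

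Apoc2, chr7:19677942-19678191, minus strand: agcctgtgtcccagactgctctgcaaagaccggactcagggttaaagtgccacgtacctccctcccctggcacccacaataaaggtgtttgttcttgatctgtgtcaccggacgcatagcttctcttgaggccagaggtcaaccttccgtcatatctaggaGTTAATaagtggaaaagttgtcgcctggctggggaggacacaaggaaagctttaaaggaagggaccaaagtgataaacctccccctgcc

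The Apoa4 window held the HNF4 type run on the other strand, 182 bases before the start. The Apoc2 window held GTTAAT 89 bases before it and the Apob window a TATA box 60 bases before it. The Apoa1 window held none of the 3 runs. Over all 12 starts the HNF4 type run was in 1, GTTAAT in 2 (Apoc2 and Apoe) and TATAAA in 5. These are matches of letters, with no binding data behind them.

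Organoids were next set beside sorted duct cells, the epithelium whose markers they carry. Apoe, Apoc1 and Apoc2 were called, all lower in EM organoids. These 3 of 10 are near the share over all genes, of which 26.5% were called. Apoe read -1.72 and -1.60 in EM and 5.52 and 7.43 in duct cells, a change of -8.14 ± 0.56 (adjusted p = 1.41e-09). Apoc1 read -1.86 and -0.85 against 4.98 and 4.32, a change of -6.01 ± 0.64 (adjusted p = 4.17e-07). The arrays of both groups lay far apart for these genes.

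Apoc2 was weaker, at 0.31 and 0.29 against 2.16 and 1.12 (-1.34 ± 0.48, adjusted p = 0.0317). Without duct array 1 its change was -0.82 (adjusted p = 0.301), and without either EM array its adjusted p was 0.0964 or 0.1. The other 7 genes, Apoa1, Apoa2, Apoa4, Apoa5, Apob, Apoc3 and Apoh, changed by -0.52 to 0.41, and of these Apoa5 and Apoh alone were above background on both duct arrays. On Cy3 alone Apoa4 changed by -1.56, Apoa5 by -1.84, Apob by -2.19, Apoc3 by -1.73 and Apoh by -2.47, all called lower in EM. That scaling called 64.5% of all genes, with a median of -1. Apoa4 and Apoc3 were above background on no EM array and no duct array, so no direction is drawn for them. Stellate cell markers moved with Apoe here: 7 of 8 were lower in EM, with a median of -6.87, and their summed Cy3 was 1290 to 1510 in EM and 151000 to 522000 in duct cells. Macrophage markers were lower too, 5 of 10, with sums of 1390 to 1500 and 36900 to 54500. The part of these cell types was not tested. Of the 64 pathway genes 14 were higher and 17 lower; lipoprotein lipase (Lpl, -7.46), its anchor Gpihbp1 (-5.21) and the Apoe receptor Lrp1 (-4.83) were lowest.

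Between the sorted duct cells and hepatocytes, 9 of 10 apolipoproteins were lower in duct cells, with 23.0% of all genes called. The median change was -5.89, against 0 over all genes. Apob read 0.48 and 0.10 in duct cells and 7.46 and 8.83 in hepatocytes (-7.85 ± 0.42). Apoh read 0.59 and 0.40 against 7.91 and 10.66 (-8.79 ± 0.75). Apoa1, Apoa2 and Apoa5 changed by -6.71, -6.69 and -7.25, and Apoc3 was at least 565-fold lower. No duct array reached a hepatocyte array for any of these.

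Smaller gaps were seen in the others. Apoc1 read 4.98 and 4.32 in duct cells and 7.17 and 9.03 in hepatocytes (-3.45 ± 0.64, adjusted p = 0.000243), and Apoc2 changed by -3.81 ± 0.48. Apoa4 changed by -2.55 ± 0.67 (adjusted p = 0.00533), a call that rests on hepatocyte array 1, which read 3.91 while array 2 read 1.02; without array 1 the change was -1.11 (adjusted p = 0.246).

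Apoe did not pass the test: it read 5.52 and 7.43 in duct cells and 5.95 and 8.17 in hepatocytes, overlapping ranges, with a change of -0.58 ± 0.56 (adjusted p = 0.577). Its normalised Cy3 was 17.72 and 18.10 in duct cells against 18.99 and 20.45 in hepatocytes. Cy3 alone gave -2.70 (adjusted p = 0.000349), and leaving out hepatocyte array 1 gave -1.69 (adjusted p = 0.0276). Each of 2 slides held 1 array of duct cells, hepatocytes, Lgr5-sorted cells and whole liver, and within these slides Apoe changed by -0.43 and -0.74. Of the pathway genes 42 were lower and 5 higher in duct cells, among them Lpl (4.49) and Gpihbp1 (2.22).

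Lgr5-sorted cells from damaged liver had the highest normalised Apoe ratios of the study, 10.52 and 9.52. They were also high for Apoc1, at 9.31 and 6.89. Before normalisation their Apoe Cy3 was below that of duct cells and hepatocytes on the same slides. Lgr5-sorted cells came from liver 6 days after CCl4, while duct cells and hepatocytes carry no CCl4 label. Damage and cell type therefore cannot be told apart. Compared with sorted duct cells, Apoe and Apoc1 were the 2 genes called, both higher, where 11.2% of all genes were called. Apoe changed by 3.55 ± 0.56 (adjusted p = 0.000145) and Apoc1 by 3.45 ± 0.64 (adjusted p = 0.000742). Duct arrays read 5.52 and 7.43 for Apoe and did not overlap. On these normalised ratios each slide gave the same direction, with 5.0 and 2.09 for Apoe and 4.32 and 2.57 for Apoc1.

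The direction for Apoe, and on 1 slide that for Apoc1, depended on the normalisation. With only the arrays of these 2 groups in the fit, neither was called (adjusted p = 0.124 and 0.153). Normalised Cy3 of Apoe was 20.68 and 18.69 in Lgr5-sorted cells against 17.72 and 18.10 in duct cells. Cy3 alone scaled to the 75th percentile instead gave -0.78 (adjusted p = 0.28) for Apoe and 0.96 (adjusted p = 0.292) for Apoc1. Before normalisation, background-subtracted Apoe Cy3 was 32271.8 and 7349.5 in Lgr5-sorted cells against 130205.8 and 29685 in duct cells. Cy5 was 558.2 and 1133.5 against 705.5 and 2660. Within each slide, Cy3 and the unnormalised ratio were thus lower in Lgr5-sorted cells. For Apoc1 the Cy3 values were 6564.5 and 1491 in Lgr5-sorted cells against 13220.5 and 1164 in duct cells. Its Cy5 values were 89.5 and 599 against 54.5 and 545. Its Cy3 and unnormalised ratio were thus lower in Lgr5-sorted cells on 1 slide and higher on the other. No direction is drawn for Apoe or Apoc1 between Lgr5-sorted and duct cells. Apoa5 read 1.51 and 1.15 against 0.03 and -0.01 and missed the test (1.32 ± 0.48, adjusted p = 0.0646), though it passed with slide (0.0475) or scan day (0.0458) as a random block. On the deposited Agilent log ratio Apoa5 (3.90, adjusted p = 0.00646) and Apoc3 (3.37, 0.000362) were called as well. The other 7 genes changed by 0.03 to 1.02.

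Macrophage markers, of the cell type that also makes Apoe and Apoc1, were read on the same normalised scale. All 10 were higher in Lgr5-sorted than in duct cells, with a median change of 5.96, and 6 of 8 bile duct markers were lower. The summed normalised Cy3 of the 10 macrophage markers was 1060000 to 3140000 on Lgr5-sorted arrays. It was 36900 to 54500 on duct arrays and 10100 to 11900 on hepatocyte arrays. The Apoe direction depended on this normalisation, so the size of the marker gap rests on it too. Marco read a mean of 7.46, Clec4f 7.27 and Vsig4 6.62 in Lgr5-sorted cells, all markers of resident liver macrophages. Their part in the Apoe and Apoc1 values was not tested. Among pathway genes 6 were higher and 10 lower; the cholesterol exporter Abcg1 (2.84), the Apob editing enzyme Apobec1 (2.33) and Pon1 (2.13) were the highest, and Clu (-5.47), Lsr (-4.17) and Foxa2 (-2.67) the lowest.

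Against hepatocytes, which share these 2 slides, 8 apolipoproteins were lower in Lgr5-sorted cells and Apoe was higher, 9 of 10 called where 21.3% of all genes were. This comparison and the preceding ones use the same duct, hepatocyte and Lgr5-sorted arrays. Apoa1 was at least 402-fold lower, Apob changed by -7.82 ± 0.42 and Apoh by -7.77 ± 0.75. Apoc1 changed by -0.003 ± 0.64 on ratios (adjusted p = 0.999), with 2.14 within 1 slide and -2.14 within the other. Cy3 alone called Apoc1 lower in Lgr5-sorted cells by -5.65 (adjusted p = 9.37e-07). On the deposited Agilent log ratio Apoa2 (-2.85, adjusted p = 0.205) and Apoc2 (-0.64, 0.569) lost their calls. Apoa4, at least 6.46-fold lower (adjusted p = 0.0142), rests on hepatocyte array 1 as before: without it the change was -0.80 (adjusted p = 0.504). Cy3 alone gave -1.47 for Apoa4 (adjusted p = 0.154). Without Lgr5-sorted array 1 or 2 its adjusted p was 0.0642 or 0.0522.

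Apoe was higher by 2.97 ± 0.56 on ratios (adjusted p = 0.000316), by 4.58 and 1.36 within the slides; with only the arrays of these groups in the fit it was not called (adjusted p = 0.0973). Cy3 alone turned this direction, with -3.48 (adjusted p = 1.82e-05). Normalised Cy3 was 20.68 and 18.69 in Lgr5-sorted cells and 18.99 and 20.45 in hepatocytes, overlapping, while normalised Cy5 was 10.16 and 9.17 against 13.04 and 12.29. No direction is drawn for Apoe between these cell types. Lpl (5.70) and Abcg1 (4.70) were the pathway genes most raised in Lgr5-sorted cells, and 42 of 64 were lower.

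**Figure D4:**
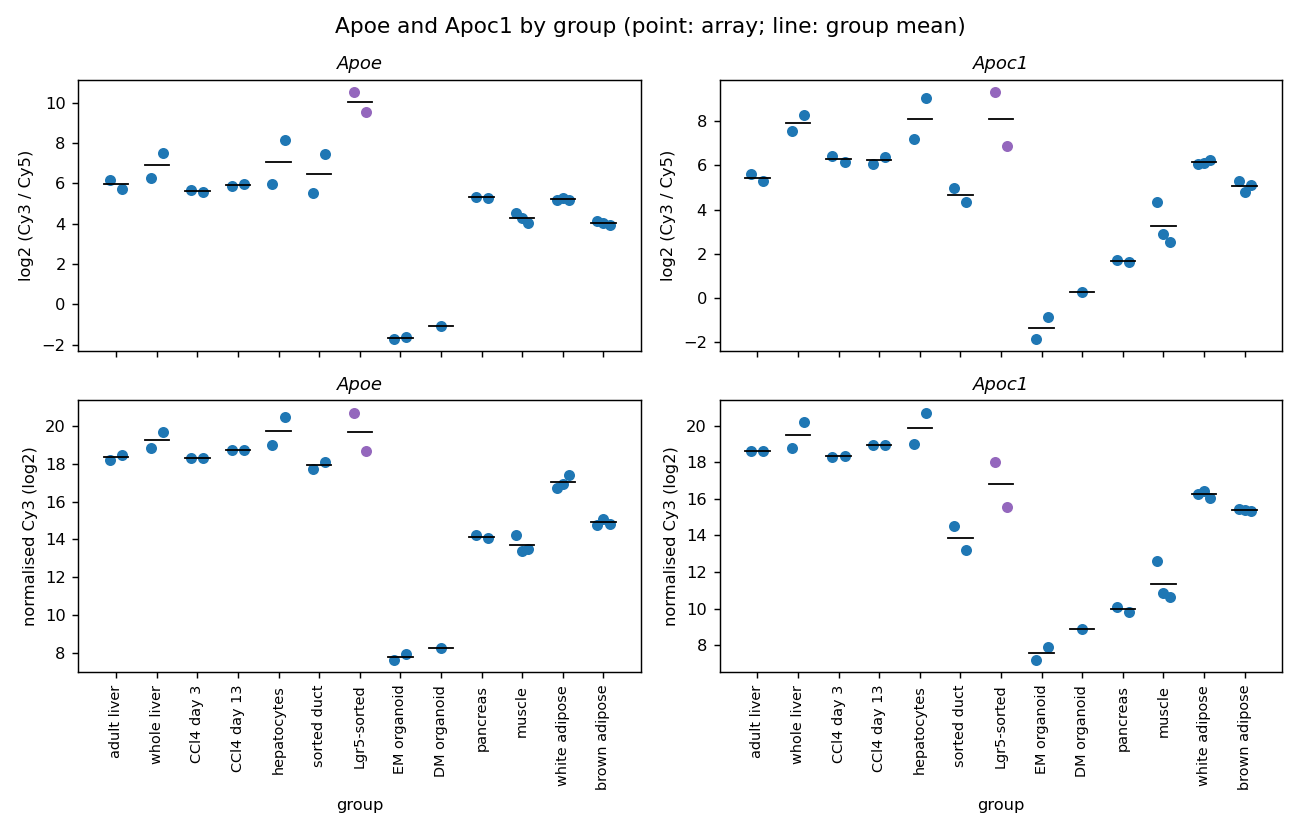
Apoe and Apoc1 by group, as log2 Cy3/Cy5 (upper panels) and as normalised Cy3 (lower panels); points are arrays, lines group means, and Lgr5-sorted cells are purple. Lgr5-sorted cells have the highest normalised Apoe ratios (10.52 and 9.52) but overlap hepatocytes in normalised Cy3. Before normalisation their Apoe Cy3 was lower than that of hepatocytes on the same slides. Both organoid media lie lowest for both genes.

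No apolipoprotein passed the test between hepatocytes and whole liver. None of the 10 was called by limma and 0 had an unadjusted p below 0.05, where 0.750% of all genes were called. Changes ran from -1.0 to 0.72. Apoa4 had the widest spread: whole liver read 2.15 and 4.76 and hepatocytes 3.91 and 1.02, which gave 1.76 on one slide and -3.75 on the other. Replicates of these groups also varied for the rest; Apoh read 8.12 and 10.13 in whole liver, and 7.91 and 10.66 in hepatocytes. A p that misses the threshold does not show that these levels are equal.

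Both undamaged liver groups are liver tissue of C57BL/6 mice, of which adult liver is labelled wildtype and whole liver has no such label. They were hybridised on different slides, so slide and group cannot be told apart. Apoc1 was the 1 gene called, higher in whole liver, where 6.49% of all genes were called. It read 7.56 and 8.29 against 5.60 and 5.28 (2.49 ± 0.64, adjusted p = 0.0165). Cy3 alone gave 0.42 (adjusted p = 0.621), and the reference signal of Apoc1 was lower on the whole liver arrays (11.21 and 11.90) than on the adult liver arrays (13.02 and 13.36). Leaving out whole liver array 2 gave 2.12 (adjusted p = 0.139), adult liver array 1 gave 2.64 (0.0602) and adult liver array 2 gave 2.33 (0.106). Apoa5 changed by 1.44 ± 0.48 (adjusted p = 0.054), with a replicate block 0.0492. Apoc3 changed by 0.90 ± 0.54 on ratios and by -1.64 on Cy3 alone, where the median of all genes was 0.62. Of pathway genes 14 were lower in whole liver and 1, Vldlr (2.46), higher.

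Liver regeneration after CCl4 was followed at 3 and 13 days against the 4 undamaged liver arrays. On ratios Apoa4 was the 1 gene called at day 3, and Apoc2 was called on Cy3 alone, as given below. At day 3 Apoa4 read 5.86 and 5.85, above all 4 undamaged livers (3.73, 4.82, 2.15 and 4.76). The change was 1.99 ± 0.58 (adjusted p = 0.0241), and its Cy3 alone rose by 3.60 (adjusted p = 0.000365). A call of 1 of 10 apolipoproteins is near the share over all genes, of which 6.98% were called. Normalised Cy3 was 13.70 and 14.25 at day 3, and at most 11.25 in undamaged liver. The call did not hold without whole liver array 1 (1.34, adjusted p = 0.0889), without adult liver array 1 (1.72, 0.0868) or without either day 3 array (1.99 and 2.00, adjusted p = 0.16 and 0.153), nor against adult liver alone (1.59, 0.131). The deposited Agilent log ratio gave -0.31 (adjusted p = 0.87). All 4 CCl4 arrays sit on 1 slide, scanned on 1 day, that holds no undamaged liver, so slide and damage cannot be told apart.

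The other 9 genes changed by -0.81 to -0.28 on ratios at day 3, and none of them had an unadjusted p below 0.05. Apoc2, the lipase cofactor, read 4.26 and 4.45 against 4.95, 4.12, 4.28 and 5.17, a change of -0.28 ± 0.42 (adjusted p = 0.782). Its normalised Cy3 was 17.89 and 17.97 against 15.57, 15.82, 15.62 and 15.93, well apart, and Cy3 alone gave 2.38 (adjusted p = 0.00158), the opposite direction. The reference signal of Apoc2 was 13.64 and 13.52 at day 3 and at most 11.70 in the undamaged livers. Lpl, the enzyme Apoc2 activates, changed by 3.52 ± 0.46 (adjusted p = 2.44e-05), and 4 of 64 pathway genes were higher and 2 lower at day 3, with a median of -0.07. Stellate cell markers moved with Apoa4 at day 3: 4 of 8 were higher, and their summed Cy3 was 68200 to 77400, against 13400 to 18200 in adult and 21500 to 25800 in whole liver. Of 10 macrophage markers 1 was higher, with sums of 90800 to 114000 against 41700 to 86000 and 29700 to 76400. Their part was not tested.

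At day 13 limma called 0 of 10 apolipoproteins and 1 had an unadjusted p below 0.05, where 1.32% of all genes were called. That gene was Apoa4, at 5.33 and 5.31 (1.45 ± 0.58, adjusted p = 0.232), still above all 4 undamaged livers. Without whole liver array 2 it was called (2.11, adjusted p = 0.0294), as it was with array weights (1.45, 0.0212). Apoa2 changed by -1.30 ± 0.62 (adjusted p = 0.346). Lpl was higher by 1.84 (adjusted p = 0.0403). The summed Cy3 of skeletal muscle markers was 640 to 7840 at day 13, against 513 to 523 in adult and 619 to 727 in whole liver. For adipocyte markers it was 410 to 10800, against 1370 to 1980 and 476 to 1330. The part of these cell types in the Lpl change was not tested.

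Between day 13 and day 3, on the same slide, limma called 0 and 0 had an unadjusted p below 0.05, where 5.60% of all genes were called. Apoa4 fell from 5.86 and 5.85 to 5.33 and 5.31 without passing the test (-0.54 ± 0.67, adjusted p = 0.898). On Cy3 alone Apoc2 was called lower at day 13 (-2.09, adjusted p = 0.0222) and Apoa4 changed by -2.24 (adjusted p = 0.0689). The 3 CCl4 comparisons share arrays and are not independent.

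**Figure D5:**
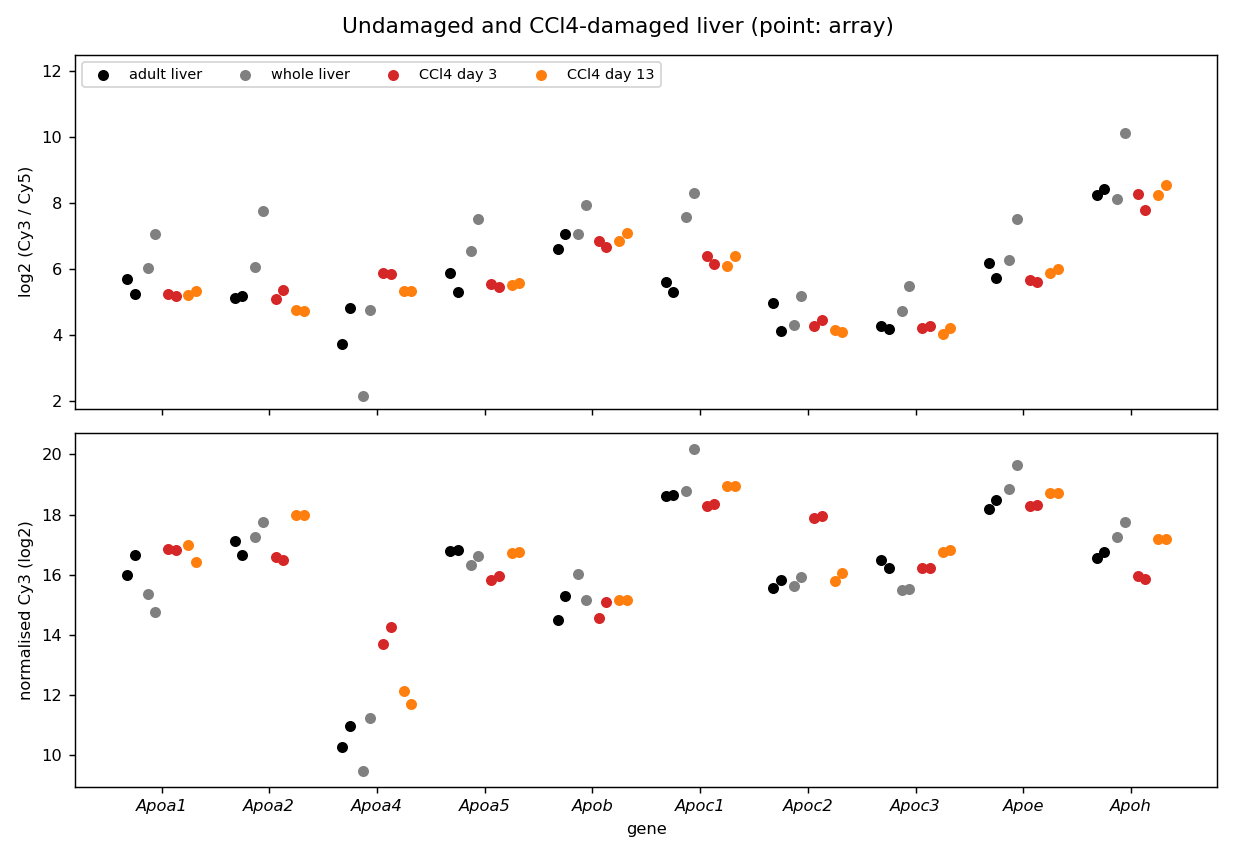
Log2 Cy3/Cy5 (upper) and normalised Cy3 (lower) of the 10 apolipoproteins in adult liver, whole liver and liver 3 and 13 days after CCl4; each point is an array. Apoa4 at day 3 (5.86 and 5.85) lies above all 4 undamaged livers in both panels, and Apoc2 at day 3 lies above them in Cy3 (17.89 and 17.97) but among them as a ratio.

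Unrelated tissues gave the range of each gene outside the liver. The 4 comparisons share the adult liver arrays, and adult liver was hybridised on slides of its own, so slide and tissue cannot be told apart. Against pancreas 9 of 10 apolipoproteins were higher in adult liver, where 28.8% of all genes were called, with a median change of 4.63. Apoa2 was at least 853-fold higher and Apoh at least 737-fold. Apoe was the exception: pancreas read 5.33 and 5.27 and liver 6.18 and 5.73 (0.66 ± 0.56, adjusted p = 0.385). Its normalised Cy3 was 14.24 and 14.07 in pancreas and 18.18 and 18.47 in liver, and Cy3 alone called it higher in liver by 5.77 (adjusted p = 1.74e-08).

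Against muscle all 10 were higher in liver, where 35.5% of all genes were called. Apoh changed by 7.01 ± 0.68 and Apob was at least 210-fold higher. Apoe, at 4.55, 4.26 and 4.04 in muscle, changed by 1.67 ± 0.51 (adjusted p = 0.00911), and without adult liver array 1 by 1.44 (adjusted p = 0.0823). Apoc1, at 4.35, 2.88 and 2.55, changed by 2.18 ± 0.59. Muscle array 1 was the highest of its group for Apoc1, Apoc2 and Apoe. The summed Cy3 of adipocyte markers was 16000 to 69800 on muscle arrays, against 1370 to 1980 in adult liver. Skeletal muscle markers summed to 4130 to 247000 on white fat arrays and 16100 to 98700 on brown fat arrays. The part of these cell types in the muscle and fat values was not tested.

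Against white adipose tissue 8 were higher in liver, where 27.6% of all genes were called; Apoc1 and Apoe were not. Apoc1 read 6.05, 6.12 and 6.23 in white fat, above both adult liver arrays (-0.70 ± 0.59, adjusted p = 0.368). Measured from whole liver instead the change was 1.79 (adjusted p = 0.0244), and on Cy3 alone 3.65 (adjusted p = 5.34e-05), the opposite direction. Apoe read 5.16, 5.28 and 5.18 (0.75 ± 0.51, adjusted p = 0.259), and 2.79 on Cy3 alone (adjusted p = 5.98e-05). Apoc2, at 3.24, 2.24 and 3.63 in white fat, was 1.5 ± 0.44 higher in liver, and 1.09 (adjusted p = 0.138) without adult liver array 1. On the deposited Agilent log ratio Apoc2 gave 0.62 (adjusted p = 0.489), Apoc3 0.28 (0.721) and Apoa1 2.53 (0.0891), all uncalled.

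Against brown adipose tissue 9 were higher in liver, where 29.0% of all genes were called. Apoc1 read 5.29, 4.78 and 5.09 (0.38 ± 0.59, adjusted p = 0.627; 3.69 on Cy3 alone, called). Apoe, Apoc2 and Apoc3 were higher in liver by 1.91 ± 0.51, 1.63 ± 0.44 and 1.91 ± 0.49. Without adult liver array 1 Apoe gave 1.68 (adjusted p = 0.0531) and Apoc2 1.21 (0.0913). On the deposited Agilent log ratio Apoc3 gave 0.66 (adjusted p = 0.366) and Apoc2 1.33 (0.122), which left 7 called.

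The 2 fats differed in none of the 10 by limma, 1 had an unadjusted p below 0.05, and 18.9% of all genes were called. That gene was Apoe, at 4.15, 4.05 and 3.93 in brown and 5.16, 5.28 and 5.18 in white fat, ranges that did not overlap (-1.16 ± 0.46, adjusted p = 0.0517). Apoc1 also did not overlap (-1.08 ± 0.53, adjusted p = 0.115). Apoe was called under other settings: -1.50 on the deposited Agilent log ratio (adjusted p = 0.0183), -1.38 without background subtraction (0.0405), -1.10 with array weights (0.00178), and -1.16 with the stricter filter on dim probes (0.0483) or with only the fat arrays (0.000873). Cy3 alone called 9 of 10 lower in brown fat, where 53.3% of all genes were called and their median was -0.72. The 9 were Apoe (-1.18), Apoc2 (-1.54), Apoc3 (-1.60), Apoa2 (-1.61), Apoa4 (-1.70), Apoa5 (-1.85), Apob (-2.16), Apoa1 (-2.32) and Apoh (-2.69). Of the 9, only Apoe, Apoc2 and Apoc3 were above background on every array of both fats. Apoa4 was above background on no white fat array, and no direction is drawn for it. Apoc1 was the exception, at -0.04 (adjusted p = 0.953). Macrophage markers were lower in brown fat too, 4 of 10, with a median change of -0.84 and summed Cy3 of 6480 to 11400 against 28800 to 35000; their part was not tested. Apoc3 spread widely in white fat, at 1.55, 0.58 and 2.89, and without white fat array 3 its change was 1.23 (adjusted p = 0.0182). In the pathway list 9 genes were higher and 12 lower in brown fat, Pon1 the highest (4.29) and the Apoe receptor Lrp1 the lowest (-2.23).

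Ordering the 13 groups by mean log2 Cy3/Cy5 shows each gene's range. The orders are those of the ratios, which the reference signal moves. The order by normalised Cy3 differed for several genes, within the liver groups and beyond them, as given below. The place of Lgr5-sorted cells also rests on the normalisation, as given above for Apoe and Apoc1, and so does that of pancreas. Unnormalised Apoe Cy3 and Cy5 were 2186.5 and 1052.5 on pancreas array 1 and 2555 and 786.5 on array 2. On brown fat array 3, which had the lowest unnormalised Apoe ratio of the fats and muscle, they were 52957 and 10169. That ratio was thus lower in pancreas than on every fat and muscle array. Apoe ran from Lgr5-sorted cells (10.02 ± 0.71, n = 2) through hepatocytes (7.06 ± 1.57), whole liver (6.90 ± 0.88), sorted duct cells (6.48 ± 1.35), adult liver (5.96 ± 0.32) and the CCl4 livers at day 13 (5.93 ± 0.09) and day 3 (5.62 ± 0.04). Pancreas (5.30 ± 0.04) and white fat (5.21 ± 0.06, n = 3) followed, then muscle (4.28 ± 0.25), brown fat (4.04 ± 0.11), the DM organoid (-1.06) and EM organoids (-1.66 ± 0.09). Of the 12 neighbouring pairs in that order, 6 overlap in range. No array of any other group came within the range of the organoids.

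Apoc1 ran from hepatocytes (8.10 ± 1.32) and Lgr5-sorted cells (8.10 ± 1.71) through whole liver (7.93 ± 0.52), the CCl4 livers at day 3 (6.28 ± 0.18) and day 13 (6.23 ± 0.23), white fat (6.14 ± 0.09), adult liver (5.44 ± 0.22), brown fat (5.06 ± 0.26), duct cells (4.65 ± 0.47) and muscle (3.26 ± 0.96). Pancreas (1.67 ± 0.06), DM (0.29) and EM (-1.36 ± 0.72) were last, and 7 of 12 neighbouring pairs overlap. Unnormalised Apoc1 Cy3 and Cy5 were 187 and 608.5 on pancreas array 1, 147 and 443.5 on array 2, and 319 and 502.5 in DM. On unnormalised ratios pancreas was thus below DM. In normalised Cy3 the Apoc1 mean of Lgr5-sorted cells was 16.81, below hepatocytes (19.85) and every liver tissue group. The lowest of those was CCl4 day 3 liver (18.31). 

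Apoc2 ran from hepatocytes (5.45 ± 0.78) through whole liver (4.73 ± 0.63), adult liver (4.54 ± 0.59) and the CCl4 livers at day 3 (4.35 ± 0.14) and day 13 (4.11 ± 0.03) to DM (3.74). White fat (3.04 ± 0.72), brown fat (2.91 ± 0.28), muscle (2.25 ± 0.70), Lgr5-sorted cells (2.15 ± 0.35) and duct cells (1.64 ± 0.73) followed. EM (0.30 ± 0.01) and pancreas (0.22 ± 0.02) were last, and 7 of 12 neighbouring pairs overlap. Of the chromosome 7 cluster, Apoc1 and Apoc2 had higher means in both fats and muscle than in pancreas, while Apoe did not as a normalised ratio. Its unnormalised ratio was higher on every fat and muscle array than in pancreas. In normalised Cy3 Apoe was higher in white (17.03) and brown fat (14.90) than in pancreas (14.15). In normalised Cy3 the highest Apoc2 mean was that of CCl4 day 3 liver (17.93), ahead of hepatocytes (16.72).

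Apob ran from hepatocytes (8.14 ± 0.97) through whole liver (7.49 ± 0.63), CCl4 day 13 (6.97 ± 0.17), adult liver (6.82 ± 0.32) and CCl4 day 3 (6.75 ± 0.12) to DM (5.11). The next mean was that of pancreas (0.85 ± 1.04), on neither of whose arrays it was above background. Apoa1 had the same break: 6.54 ± 0.73 in whole liver, 5.47 ± 0.32 in adult liver, 5.26 ± 0.10 and 5.19 ± 0.03 after CCl4 and 4.19 in DM, then 1.01 ± 0.76 in muscle, 0.59 ± 0.69 in brown fat and 0.05 ± 0.06 in duct cells. Apoc3 stood at 5.10 ± 0.52 in whole liver, between 4.11 and 4.24 in adult and CCl4 liver and at 3.47 in DM. Both fats came next for Apoc3, brown at 2.29 ± 0.26 and white at 1.67 ± 1.16, above background on all 6 arrays.

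Apoa2, Apoa5 and Apoh put the DM organoid among the lowest groups instead. Apoa2 read 4.73 to 6.91 as a mean in liver tissue and hepatocytes, 0.89 ± 1.13 in Lgr5-sorted cells and -0.14 in DM. Apoa5 read 5.50 to 7.01 in liver tissue, 1.33 ± 0.26 in Lgr5-sorted cells, 0.12 in DM and -0.24 ± 0.33 in EM. Apoh read 8.02 to 9.29, 1.52 ± 0.72, -0.05 and -0.03 ± 0.21 in the same groups, hepatocytes included. These means outside the liver differ by less than the spread of the arrays for most neighbours.

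Apoa4 had an order of its own. The CCl4 livers at day 3 (5.86 ± 0.01) and day 13 (5.32 ± 0.01) came first, then the DM organoid (5.24), adult liver (4.27 ± 0.77), whole liver (3.46 ± 1.85) and hepatocytes (2.46 ± 2.04). All other groups lay between -0.09 and 0.32, where no array besides 2 of brown fat was above background. On ratios its neighbours on chromosome 9 put hepatocytes first: Apoa1 reached 6.76 ± 1.1, Apoa5 7.26 ± 1.13 and Apoc3 5.12 ± 1.44 in hepatocytes. Apob (8.14 ± 0.97), Apoh (9.29 ± 1.94) and Apoa2 (6.91 ± 1.20, in whole liver) also had their highest ratios in undamaged liver cells or tissue. By normalised Cy3 the highest mean was in CCl4 day 3 liver for Apoa4 (13.97) and Apoa1 (16.85), in CCl4 day 13 liver for Apoc3 (16.79) and Apoa2 (17.99), in adult liver for Apoa5 (16.82) and in hepatocytes for Apob (16.34) and Apoh (17.85). Between 8 and 10 of 12 neighbouring pairs overlap for these genes.

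Likeness between genes was described by Pearson's r over the 13 group means, points that share the reference RNA and slides. Apoa2 and Apoa5, Apoa1 and Apob, Apoa2 and Apoh, and Apoa5 and Apoh each had r = 0.99, while Apoc1 and Apoe had 0.88 and Apoa4 and Apoe -0.08. Over 14019 other genes bright on at least 10 arrays, the nearest to Apob were Abcg5 (0.998), Ugt2b36 and Mettl7b (0.996 each), and the nearest to Apoa1 were Mettl7b (0.995), Ugt2b36 (0.993) and Abcg5 (0.992). Apoa2 and Apoa5 were closest to Lect2 (0.995 and 0.998), Apom (0.995 and 0.997) and, respectively, Ugt3a2 (0.994) and Uox (0.997). Apoh was nearest to Plg (0.998), Serpinc1 and Apof (0.996 each), which encode or accompany plasma proteins, and Apoc3 to Ces1f (0.993), Cyp2f2 (0.963) and Mettl7b (0.962).

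The other genes had different neighbours. Apoa4 was nearest to Cdhr5 (0.972), a brush border cadherin, Slc17a4 (0.968) and Serpina9 (0.963). Apoe was nearest to Lcp1 (0.947), an actin-bundling protein of blood cells, Sp100 (0.937) and Usp18 (0.932). Apoc1 was nearest to Klhl5 (0.958), Zfp944 (0.946) and Ahsg (0.929), and Apoc2 to Hsd17b11 (0.952), Creb3l3 (0.943) and Abcg2 (0.942).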

How the data were processed

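Each array's scanner file held Cy3 and Cy5 spot intensities deposited by the authors, extracted with Agilent Feature Extraction 10.5.1.1 per the file headers (8.5.1.1 per the submitters' processing notes). The deposited log10 ratios and the authors' value table held the same numbers on all 28 arrays and served as an alternative. Control spots (1639 of 45018) and outlier spots (0.688%) were left out after background correction by normexp (offset 50); arrays were then loess-normalised and log2 Cy3/Cy5 computed from the deposited intensities. Direction follows the labels: sample in Cy3, reference in Cy5. Of several probes of a gene the brightest was used. Probes above background on at least 2 arrays were kept (31082 probes, 21332 genes, 16580 named through RefSeq and 4752 by the file). limma 3.58.1 in R 4.3.3 fitted all 13 groups with empirical Bayes; 17 comparisons were made. The code was tested on simulated data. Members, gene lists and tests were chosen with earlier results of these data known. Named genes are all 10 members and, per comparison, up to 3 largest rises and falls of the pathway list; likeness named the 3 nearest genes. Levels and bounds used Cy3 normalised between arrays (Aquantile). The number of arrays limits the precision.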

Additional observations from a re-analysis of the deposited data

Results flagged for a closer look

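Apoh read 10.13 (log2 Cy3/Cy5) on whole liver array 2, apart from the other 3 undamaged livers, which read 8.12, 8.24 and 8.41. The gap to the nearest was 0.856 of the range of these 4 arrays, above Dixon's limit for 4 values. Its normalised Cy3 was 17.76 on that array and 17.25 on whole liver array 1, while its normalised Cy5 was 7.63 and 9.13. Hepatocyte array 2, on the same slide, also read above hepatocyte array 1 for Apoh (10.66 and 7.91). The cause was not tested. The highest and lowest values of 10 genes were examined, so 1 such value among 20 could arise by chance. The 20 values share arrays and slides and are not independent.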

How the results depend on the processing

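Over 170 gene changes and their 3040 alternative settings, 2935 kept direction and side of the threshold, 46 lost a call, 47 gained one and 12 called or calling changes turned direction. Counts of called apolipoproteins stayed within 1.5 times in 271 of 304 settings. With Cy3 alone, which moved the median of all genes by -1 to 0.62, the counts became 8 for EM against duct cells (Apoa4 -1.56 and Apoc3 -1.73 turned), 0 for Lgr5-sorted against duct cells (Apoe -0.78 turned), 2 at CCl4 day 3 (Apoc2 2.38 turned), 1 for day 13 against day 3, and 9 for brown against white fat (Apoa2 -1.61, Apoa4 -1.70 and Apoc3 -1.60 turned); Apoe turned to -3.48 for Lgr5-sorted cells against hepatocytes, making 0 higher and 9 lower in place of 1 and 8, Apoc3 to -1.64 for whole against adult liver, and Apoc1 to 3.65 for adult liver against white fat, or 1.79 with whole liver. Of all genes, Cy3 alone called 64.5% for EM against duct cells and 53.3% for brown against white fat. With the deposited Agilent log ratio the counts were 4 for Lgr5-sorted against duct cells, 0 for whole against adult liver and 0 at day 3 (Apoa4 -0.31). They were 5 for adult liver against white fat and 1 for brown against white fat. Only the arrays compared gave 0, 0, 0 and 2 for Lgr5-sorted against duct cells, whole against adult liver, day 3 and brown against white fat. Whole against adult liver gave 2 with genes above background on at least 5 arrays. Day 3 gave 0 with scan day as a block, 0 against adult liver alone and 2 against whole liver alone. Array weights gave 2 at day 13 and 3 for brown against white fat, which gave 2 without background subtraction and 1 with the stricter filter. Leaving out 1 array gave 0 to 2 for whole against adult liver and 0 to 1 at day 3, at day 13 and for brown against white fat. The cause of these shifts was not tested.

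The count of all genes called moved by over 1.5 times under some setting in 15 of 17 comparisons. It was 2154 for DM against EM (1286 to 2757 over the settings), 5645 for EM against duct cells (4922 to 13753), 4909 for duct cells against hepatocytes (3767 to 7877), 2399 (0 to 5136) and 4540 (2850 to 7245) for Lgr5-sorted cells against duct cells and hepatocytes, 160 for hepatocytes against whole liver (0 to 465) and 1384 for whole against adult liver (9 to 5968). For CCl4 it was 1489 at day 3 (1043 to 3251), 282 at day 13 (83 to 996) and 1195 between them (782 to 1831). For adult liver it was 6142 against pancreas (4732 to 11899), 7568 against muscle (6760 to 12065), 5898 against white fat (4349 to 9428) and 6182 against brown fat (5593 to 10126), and for brown against white fat 4028 (3537 to 11366).

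The labels give replicate numbers no shared animal or batch. For duct cells, hepatocytes, Lgr5-sorted cells and whole liver the number is also the slide; deviations of their same-numbered arrays correlated between 0.05 and 0.44, so the numbers may pair these groups. Over all other pairs of 2-array groups the correlation was between -0.11 and 0.3. The replicate block changed 1 call, Apoa5 in whole against adult liver (1.44, adjusted p = 0.0492), which made 2 called there. DM rests on 1 array, and probes at background give bounds only.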
